A study of Mus musculus with 12 samples.

Results

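A set of 10 genes of the lysophospholipid signals that steer lymphocytes through and out of lymph nodes was followed here, namely Enpp2, Sphk1, Sphk2, Spns2, Sgpl1, Plpp3, S1pr1, S1pr3, S1pr4 and Lpar6. They were taken by symbol from the deposited gene list, and 10 of 10 were found among 32285 genes. Molecules were counted as UMIs, the tags that mark single captured RNA molecules, in 12 single-cell libraries of mouse lymph node. Levels are in CPM, a gene's UMIs as a share of all UMIs of a cell class in 1 library (the usual scale of sequencing counts); since only 3-prime ends were read, levels are compared within a gene and not between genes.

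All mice were C57BL/6, 7 to 10 weeks old, with floxed Atg12, an autophagy gene, and all received tamoxifen 5 times. Groups differed in the CDH5 CreER transgene (positive or negative label), a tamoxifen-activated Cre driven by an endothelial promoter and so not limited to 1 kind of vessel. They also differed in treatment: 4% oxazolone, a contact sensitiser, on abdominal skin with nodes taken at day 3 or day 7, or acetone and olive oil alone as vehicle. From each node suspension a CD45-depleted fraction (labelled CD31, endothelial cells) and a CD45-selected fraction (labelled CD45, immune cells) were each sorted by flow cytometry and sequenced, which gave 6 libraries per fraction and 1 library per group. How many mice each library held was not given in the sources used here. Pairs of values below always give the Cre-negative library first.

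Sphingosine-1-phosphate (S1P) is made inside cells by the kinases Sphk1 and Sphk2, exported by Spns2, and degraded by the lyase Sgpl1, or dephosphorylated by membrane phosphatases such as Plpp3. Lymphocytes use the receptor S1pr1 to leave a node toward lymph, where S1P is high. Lysophosphatidic acid (LPA) is released outside cells by autotaxin, the product of Enpp2, which high endothelial venules (HEVs, the entry vessels of lymphocytes) are known to secrete. Lpar6 is an LPA receptor, and S1pr3 and S1pr4 are further S1P receptors.

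The RefSeq table (GRCm38.p6) held promoters of 8 members and none for Enpp2 and S1pr1. The 250 bases upstream of the start are shown for 3 members with different leading classes and CG content: Spns2, highest in T-zone reticular-like and 2 of the 3 lymphatic-like classes; S1pr4, highest in gamma-delta T-like cells; and Sgpl1, highest in macrophage-like cells. Letters run 5′ to 3′ and capitals mark CG dinucleotides.
Spns2: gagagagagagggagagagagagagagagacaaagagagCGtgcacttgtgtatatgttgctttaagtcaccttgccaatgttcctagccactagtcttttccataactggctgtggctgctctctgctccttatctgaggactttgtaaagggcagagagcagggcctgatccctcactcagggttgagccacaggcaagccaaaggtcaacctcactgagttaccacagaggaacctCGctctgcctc
S1pr4: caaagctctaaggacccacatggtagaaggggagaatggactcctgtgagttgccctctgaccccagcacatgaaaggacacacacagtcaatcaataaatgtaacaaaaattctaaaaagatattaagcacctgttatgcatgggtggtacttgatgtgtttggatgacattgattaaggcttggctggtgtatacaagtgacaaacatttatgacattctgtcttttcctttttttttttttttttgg
Sgpl1: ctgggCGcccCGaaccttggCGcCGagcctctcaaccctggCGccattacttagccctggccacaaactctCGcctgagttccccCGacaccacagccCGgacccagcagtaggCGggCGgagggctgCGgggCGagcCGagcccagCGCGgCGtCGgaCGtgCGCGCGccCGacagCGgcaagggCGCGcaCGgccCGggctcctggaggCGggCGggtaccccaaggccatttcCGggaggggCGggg
These windows lie at chr11:72475028-72475277 on the minus strand (Spns2), chr10:81500138-81500387 on the minus strand (S1pr4) and chr10:61147685-61147934 on the minus strand (Sgpl1). They held 2, 0 and 31 CG dinucleotides, against a median of 6 in 32851 promoter windows of the same 250 bases. Sphk2 had 27 and 20 at its 2 listed starts, and Lpar6 had 1. CACCC, the core of the letters that Klf-family factors are known to bind, was searched on both strands and occurs in 52.0% of all windows. It occurred 1 time in the windows of S1pr4, Lpar6 and Plpp3, 2 times in that of S1pr3 and not in those of Spns2 or Sgpl1. The 2 windows of Sphk2 held it 1 and 2 times, and the 5 of Sphk1 held it 0, 3, 2, 3 and 3 times. TATAAA, searched likewise and present in 12.4% of windows, was found in 1 of the 5 windows of Sphk1 and in no window of the other 7 members. By GENCODE M21 the Spns2 window lies within the gene, downstream of its outermost start.

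In all, 89054 cells were kept, 5698 to 10553 per library, with a median of 3433 to 6193.5 UMIs per cell. The day 3 Cre-positive CD31 library stood apart. Of its 10553 cells, 2415 fell in an unnamed cluster with a median of 1498.5 UMIs, against 47 to 622 cells in the other CD31 libraries. Any pair of libraries shared 6 to 28 cell barcodes, at most 0.384% of the smaller library. Free RNA made up an estimated 0.587% to 2.37% of UMIs in lymphocytes. Atg12 itself, whose deleted part a 3-prime count need not see, was at 42.5 to 54.3 CPM in HEV-like cells of both labels. Clusters were named from markers after their leading genes had been seen, and an endothelial or fibroblast class without such a name is called by a leading gene (Col8a1-high, Penk-high, Igfbp3-high, Mgp-high). All 6 HEV markers were among the top 2 of 33 classes in HEV-like cells, and Ackr4 (ceiling), Madcam1 (floor) and Marco (medullary) were highest in the lymphatic-like class named for each, with Itga2b, also a floor marker, second in floor cells. Of the T-zone reticular markers, the class so named ranked 1 for Il7, 2 for Ccl19 and Grem1 and 3 for Bst1. None of the 4 was among that cluster's 10 leading genes, and the unnamed cluster led by Fabp7, with Ccl19 among its own, had a higher fold over the list (8.64 against 7.04). The T-zone reticular-like class also had a fold of 5.54 over the mural markers. In the CD45 libraries the macrophage-like class was mixed, with a fold of 56.41 over its own markers. It also had folds of 22.46 over type 2 dendritic, 16.17 over monocyte and 8.63 over mast cell markers. The CD45 libraries also held fibroblast-like cells, 1004 to 1854 per library, in which Ptprc, the CD45 gene, was at 11.7 to 18.2 CPM in the T-zone reticular-like class against 1011 to 1324 CPM in T cell-like cells. Those cells thus carried little RNA of the marker that names their fraction.

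Laid out over the 33 classes with at least 30 cells in all 6 libraries of a fraction, the 10 genes differed in where they were highest, and some shared a class. Enpp2 was highest in HEV-like cells and T-zone reticular-like cells, and Spns2 in T-zone reticular-like and in ceiling and medullary lymphatic-like cells. For Enpp2, immediate-early endothelial and angiogenic tip-like cells came next, and both overlapped HEV-like cells. These 4 classes had medians at 50% or more of its highest. S1pr1 and Lpar6 were both highest in Col8a1-high endothelial cells, Plpp3 in Penk-high endothelial cells, S1pr4 in gamma-delta T-like cells, and Sgpl1 and Sphk2 in macrophage-like cells. The last class also carried markers of other myeloid cells, so those peaks are not shown to be of macrophages alone. S1pr3 and Sphk1 had their highest medians in a cluster led by Fabp7, Glycam1 and Fabp4 that was left without a name. For Sphk1 that cluster's range overlapped those of all other classes. The cluster had folds of 4.7 over blood endothelial, 4.15 over mural and 8.64 over T-zone reticular markers. Of its 828 cells, 444 came from the day 3 Cre-negative library. Sphk2 was the broadest, with 23 of 33 classes at 50% or more of its highest median, while the others had between 2 and 9. Adjacent classes in a gene's order mostly overlapped in their 6 values: of 32 neighbouring pairs per gene, between 0 and 4 did not.

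**Figure D1:**
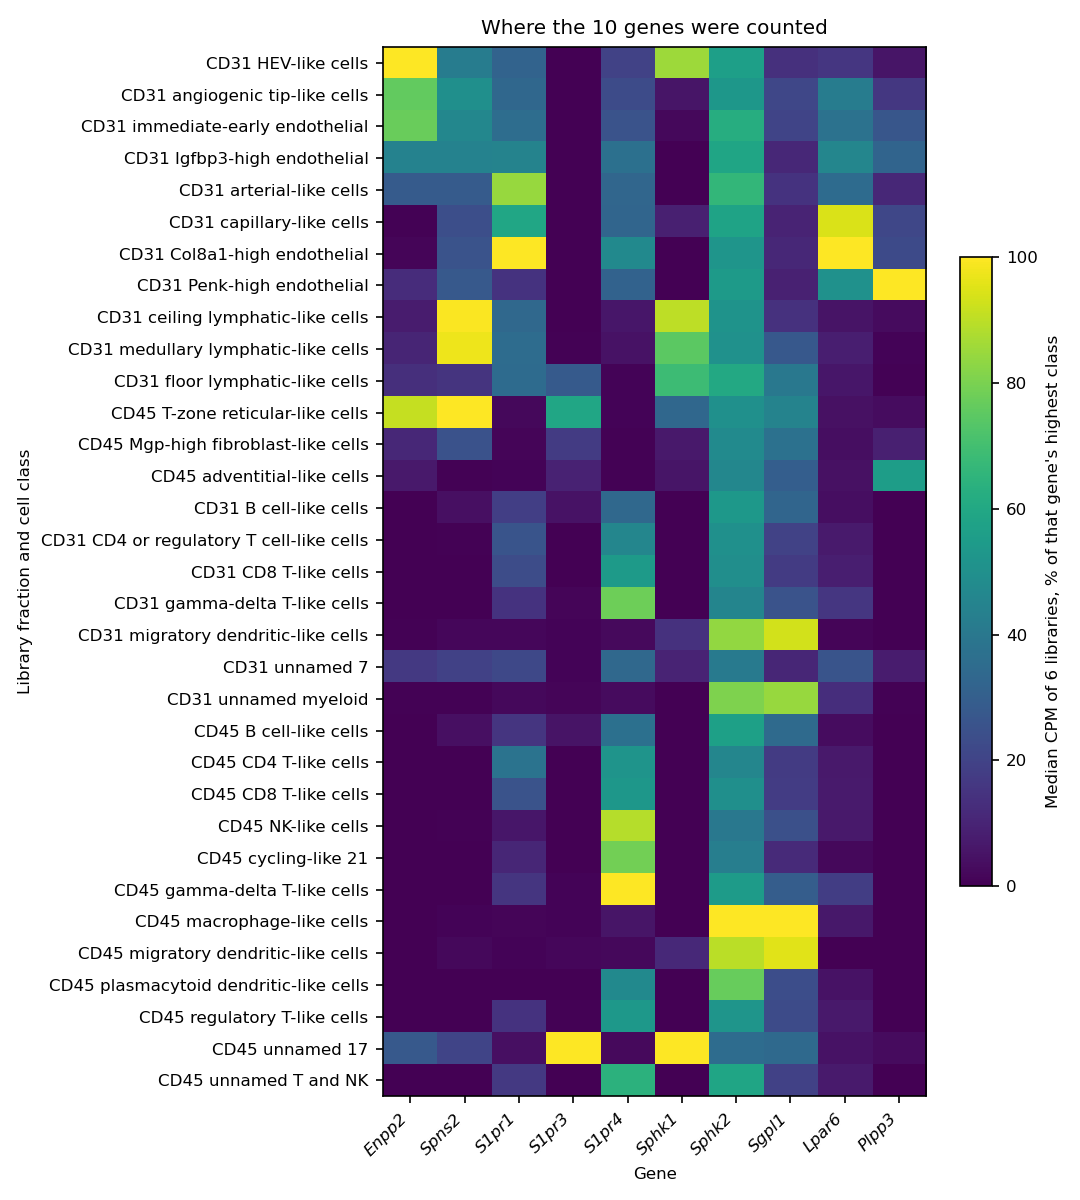
Rows are the 33 cell classes with their library fraction, columns the 10 genes, and colour the median CPM of 6 libraries as a percentage of that gene's highest class (0 to 100%). Enpp2 peaks in HEV-like and T-zone reticular-like cells, with immediate-early endothelial and angiogenic tip-like cells next. Spns2 peaks in reticular and 2 lymphatic-like classes, and Sphk2 is spread over most rows.

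Enpp2 (chr15:54838901-54952892, minus strand; GRCm38, GENCODE M21 here and below), the LPA-producing ecto-enzyme, stood lower at day 3 in HEV-like cells than at vehicle or day 7, in both labels, though just short of the threshold. Its level was 2227 and 2658 CPM at vehicle, 1247 and 1135 at day 3, and 2377 and 2247 at day 7. Both day 3 libraries lay below all 4 others, and the day 7 libraries were back within the range of vehicle. The difference did not pass (log2 change -1.04, SE 0.17, edgeR adjusted p = 0.0518), in a class where edgeR called 67 of 11854 genes (0.565%). With DESeq2 it passed (log2 change -1.04, adjusted p = 3.2e-06), and over the 13 alternatives the change ran from -1.27 to -0.80, with adjusted p from 9.5e-08 to 0.407 and 8 calls. It was not called without either day 3 library or the day 7 Cre-negative library, with free RNA subtracted, or with suspected doublets kept. Day 7 gave a log2 change of -0.03 (SE 0.17, edgeR adjusted p = 0.996), and the labels gave a log2 change of -0.03 (SE 0.14, edgeR adjusted p = 1.00).

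The share of HEV-like cells with at least 1 Enpp2 UMI was 88.7% to 99.7%. After every cell was thinned to 1000 UMIs the shares were 82.9% and 88.5% at vehicle, 67.2% and 59.7% at day 3, and 87.7% and 84.2% at day 7. CD8 T-like cells from those libraries, a type without known Enpp2 expression, had thinned shares of 0.360% to 0.768%. T-zone reticular markers (Ccl19, Il7, Grem1, Bst1) summed to 59.02 to 109 CPM in HEV-like cells and the 6 fibroblast markers to 0.259 to 1.95 CPM, with 1 gene of each list at 0 in every library. The 6 HEV markers, mainly Glycam1, summed to 24951 and 21532 CPM at vehicle, 25218 and 13121 at day 3, and 77743 and 13879 at day 7. The day 7 Cre-negative library stood apart there, whereas its Enpp2 did not; the part of these shifts in the result was not tested. HEV-like cells held 37.6% of the Enpp2 UMIs of the CD31 libraries while making up 6.59% of their cells.

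Angiogenic tip-like cells were the only fitted class in which the fall of Enpp2 at day 3 passed the test. They had 1675 and 1717 CPM at vehicle, 1143 and 1037 at day 3, and 2329 and 2044 at day 7. The 2 day 3 libraries were again the lowest and the fall passed the test (log2 change -0.55, SE 0.17, edgeR adjusted p = 0.0456), where 8.04% of 11014 genes were called. It was lost without either day 3 library or without either day 7 library (adjusted p from 0.135 to 0.492). Immediate-early endothelial cells had 2116 and 1632 CPM at vehicle, 1641 and 837 at day 3, and 1901 and 1807 at day 7, and there the treatments overlapped. Ceiling lymphatic-like cells held less Enpp2, 179 and 181 CPM at vehicle, 90.6 and 71.5 at day 3, and 181 and 158 at day 7, with the day 3 pair lowest (log2 change -1.13, SE 0.24, edgeR adjusted p = 0.120). Capillary-like cells carried little of it, 8.12 to 29.96 CPM. Over all blood endothelium other than HEV-like cells day 3 gave a log2 change of -0.69 (SE 0.18, edgeR adjusted p = 0.209). The makeup of that sum differed between libraries: of its cells, capillary-like ones were 28.9% and 27.3% at vehicle, 50.8% and 25.7% at day 3, and 15.8% and 29.03% at day 7. Immediate-early ones were 8.16% and 18.96% at vehicle, 3.33% and 6.86% at day 3, and 15.87% and 7.46% at day 7. The part of this makeup in the change was not tested.

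T-zone reticular-like cells, named for the fibroblasts of the T cell area but not located in the node here, held Enpp2 in the range of HEV-like cells. They had 2039.9 and 2400.4 CPM at vehicle, 1364 and 2042 at day 3, and 2268 and 1675 at day 7. Here the Cre-positive day 3 library lay at the Cre-negative vehicle level, the groups overlapped, and no change passed (log2 change -0.36, SE 0.26, edgeR adjusted p = 0.425). It was -0.07 without the day 3 Cre-negative, -0.66 without the day 3 Cre-positive and -0.21 without the vehicle Cre-positive library. This 1 class held 84.99% of the Enpp2 UMIs of the CD45 libraries in 10.8% of the cells. T and B cell-like cells had next to none, 1.36 to 4.27 CPM in CD8 T-like and 1.59 to 4.67 CPM in B cell-like cells.

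**Figure D2:**
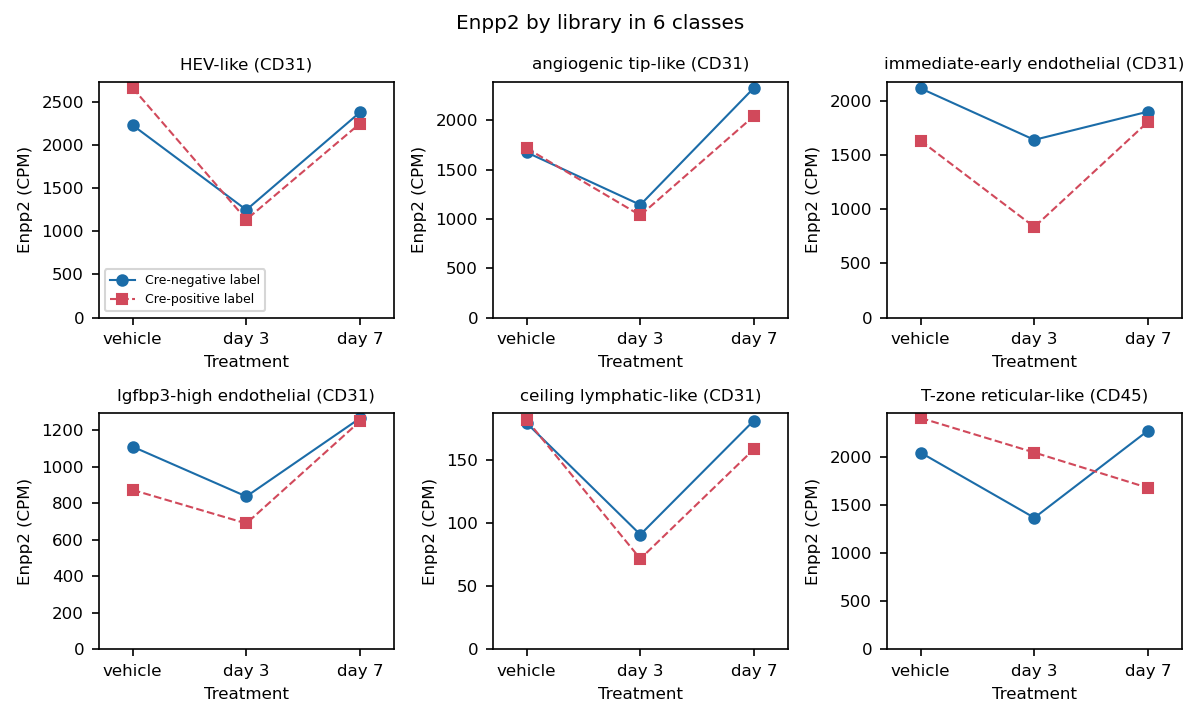
Each panel shows Enpp2 CPM (vertical axis, from 0) in 1 class against treatment, with 1 point per library and lines joining libraries of a label. In HEV-like cells both day 3 points (1247 and 1135) lie below the other 4, while T-zone reticular-like points overlap between treatments.

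Sphk1 (chr11:116530925-116536674, plus strand), 1 of the 2 kinases that make S1P, was scarce: the CD31 libraries held 746 UMIs of it, of which 45.98% lay in lymphatic-like and 43.6% in HEV-like cells. In HEV-like cells it was 9.19 and 17.1 CPM at vehicle, 6.29 and 5.33 at day 3, and 16.6 and 11.005 at day 7. The day 3 pair was lowest, as for Enpp2, without passing the test (log2 change -1.18, SE 0.39, edgeR adjusted p = 0.132). Without a filter on low counts (adjusted p = 0.00149) or without the vehicle Cre-negative library (log2 change -1.83, adjusted p = 0.0125) it was called, while without the vehicle Cre-positive library it was -0.40 (adjusted p = 0.685). Floor lymphatic-like cells, which line the parenchymal side of the subcapsular sinus, had the opposite order, with 4.23 and 7.31 CPM at vehicle, 14.9 and 15.8 at day 3, and 7.14 and 8.86 at day 7. The day 3 pair was the highest there, from 7 and 14 UMIs at vehicle, 18 and 18 at day 3, and 24 and 15 at day 7, and this did not pass either (log2 change 1.43, SE 0.46, edgeR adjusted p = 0.544). Ceiling lymphatic-like cells had 7.10 to 12.8 CPM with a median of 10.6. In B cell-like cells at most 0.120% of the cells of a library had a Sphk1 UMI.

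Sphk2 (chr7:45709467-45718002, minus strand), the other kinase, was low everywhere, from a class median of 5.27 CPM to 14.9 CPM in macrophage-like cells. HEV-like cells had 9.19 and 9.80 CPM at vehicle, 9.06 and 7.75 at day 3, and 4.66 and 5.50 at day 7. The day 7 pair was lowest, and the difference failed the correction (log2 change -0.87, SE 0.29, edgeR adjusted p = 0.987). Dbp, on the other strand, meets Sphk2 where both genes end. Whether the authors' counting used strand was not given in the sources used here, so whether reads of the 2 genes were kept apart there is not known. Rpl18, Gm26684, Gm32834 and Gm29292 overlap Sphk2, Enpp2, S1pr3 and Sphk1 on the other strand, away from the 3-prime ends of both genes.

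Spns2 (chr11:72451638-72489904, minus strand), the S1P exporter that lymphatic endothelium is known to need for lymph S1P, separated the lymphatic-like classes. Ceiling lymphatic-like cells had 207 and 254 CPM at vehicle, 217 and 194 at day 3, and 218 and 225 at day 7, and medullary lymphatic-like cells 161 to 237 CPM with a median of 214. Floor lymphatic-like cells had 36.2 and 41.8 CPM at vehicle, 33.1 and 27.1 at day 3, and 20.5 and 33.7 at day 7, so no floor library reached any ceiling or medullary library. Thinned to 1000 UMIs, 19.1% to 22.3% of ceiling and 2.14% to 4.61% of floor cells had a UMI, against 0.578% to 1.48% of B cell-like cells. Over all lymphatic-like cells no treatment effect passed at day 3 (log2 change -0.15, SE 0.23, edgeR adjusted p = 0.994).

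Outside the lymphatics, T-zone reticular-like cells had 210.4 and 268 CPM at vehicle, 134 and 187 at day 3, and 228 and 259 at day 7. The day 3 pair was the lowest, but the change did not pass (log2 change -0.55, SE 0.18, edgeR adjusted p = 0.126). HEV-like cells held Spns2 at 80.3 to 105 CPM with overlapping groups (log2 change -0.20, SE 0.13, edgeR adjusted p = 0.414). B cell-like cells of the CD45 libraries had 7.72 to 9.95 CPM of the exporter and T cell-like cells 0 to 0.595 CPM. Spns2 shares its last bases with Mybbp1a on the other strand, and whether their reads were kept apart there is likewise not known.

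**Figure D3:**
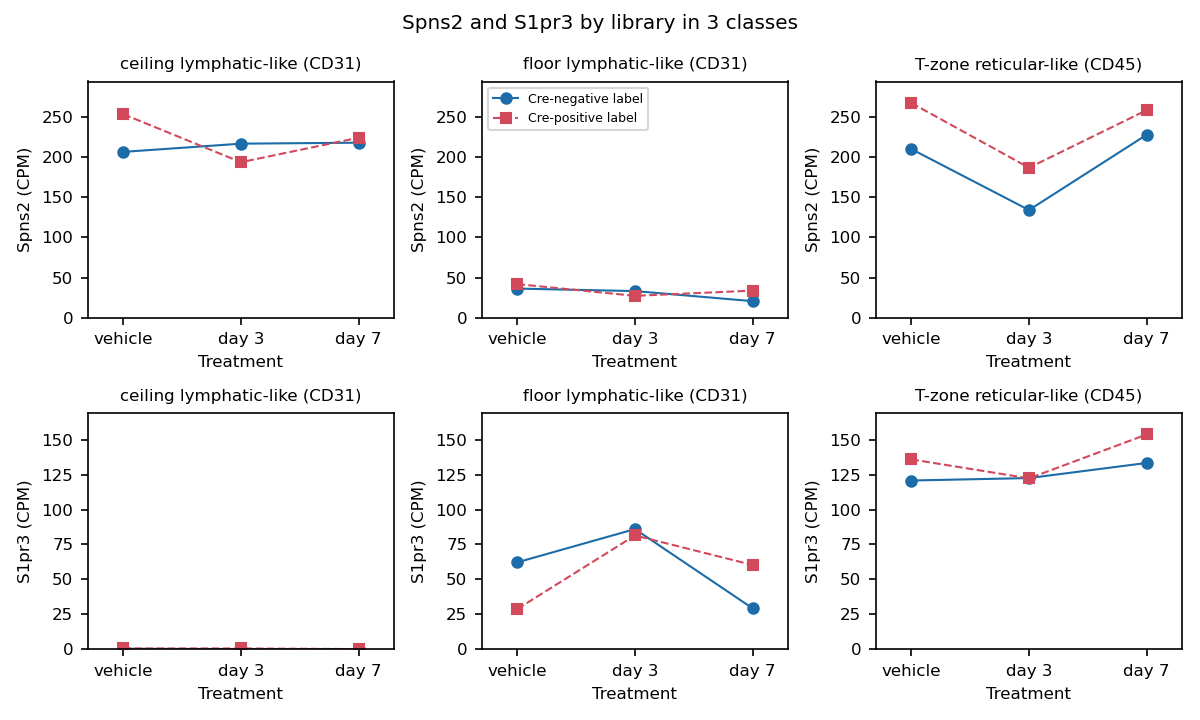
Upper panels show Spns2 and lower panels S1pr3, in CPM from 0 on 1 scale per gene, against treatment in ceiling lymphatic-like, floor lymphatic-like and T-zone reticular-like cells, 1 point per library. Spns2 is at 194 to 254 CPM in the ceiling libraries and at 20.5 to 41.8 in the floor libraries, and S1pr3 shows the opposite order.

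Sgpl1 (chr10:61098642-61147703, minus strand), the lyase that degrades S1P irreversibly, was counted in all 33 classes, with class medians from 10.5 CPM upward. Macrophage-like cells had 94.5 and 178 CPM at vehicle, 80.4 and 136 at day 3, and 127 and 98.3 at day 7, and migratory dendritic-like cells of the same libraries 103 and 125 CPM at vehicle, 88.9 and 144 at day 3, and 112 and 102 at day 7. The 2 classes overlapped with each other, and all 6 migratory dendritic-like values lay above every B cell-like value (29.2 to 46.7 CPM). Penk-high and capillary-like endothelium were the lowest, at 7.83 to 11.7 CPM and 6.22 to 13.5 CPM. No treatment or label difference passed in either myeloid class; in macrophage-like cells day 3 gave a log2 change of -0.27 (SE 0.30, edgeR adjusted p = 0.868). In B cell-like cells day 7 gave a log2 change of -0.33 (SE 0.12, edgeR adjusted p = 0.975).

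Plpp3 (chr4:105157347-105232764, plus strand), a phosphatase that removes the phosphate of LPA and S1P outside cells, had 2 centres. In the CD31 libraries Penk-high endothelial cells had 4038 and 4209.6 CPM at vehicle, 4213 and 3636 at day 3, and 4979 and 3549 at day 7, all above every library of the next endothelial class, Igfbp3-high cells (1037 to 1712 CPM). In the CD45 libraries adventitial-like fibroblasts, which surround larger vessels, had 2547 and 3968 CPM at vehicle, 1353 and 2293 at day 3, and 2109 and 2296 at day 7. HEV-like cells held 208 to 261 CPM and NK-like cells 0 to 2.69 CPM.

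Summed over the 3 fibroblast-like classes, Plpp3 fell at day 3. The sums had 899 and 1237 CPM at vehicle, 268 and 282 at day 3, and 362 and 424 at day 7, so every oxazolone library lay below both vehicle libraries. The fall passed the test (log2 change -1.94, SE 0.19, edgeR adjusted p = 0.00809) among 15054 genes of which 7.43% were called; it was lost without the day 3 Cre-negative library (adjusted p = 0.107) or the day 3 Cre-positive library (adjusted p = 0.0998). Day 7 did not pass (log2 change -1.43, SE 0.18, edgeR adjusted p = 0.0761). The makeup of the sum moved with it: of its cells, adventitial-like ones were 24.3% and 19.9% at vehicle, 17.1% and 7.67% at day 3, and 6.53% and 8.58% at day 7. Adventitial markers (Pi16, Dpp4, Cd34) in the sum were 1055 and 866 CPM at vehicle, 286 and 294 at day 3, and 320.3 and 313 at day 7. Within adventitial-like cells alone day 3 gave a log2 change of -0.95 (SE 0.21, edgeR adjusted p = 0.229); it was called by DESeq2 (adjusted p = 0.0288), without a filter on low counts (adjusted p = 3.2e-05) and without the day 7 Cre-negative library (adjusted p = 2e-05). It did not pass in Mgp-high (log2 change -0.48, SE 0.28, edgeR adjusted p = 0.544) or T-zone reticular-like cells (log2 change -0.50, SE 0.24, edgeR adjusted p = 0.252).

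**Figure D4:**
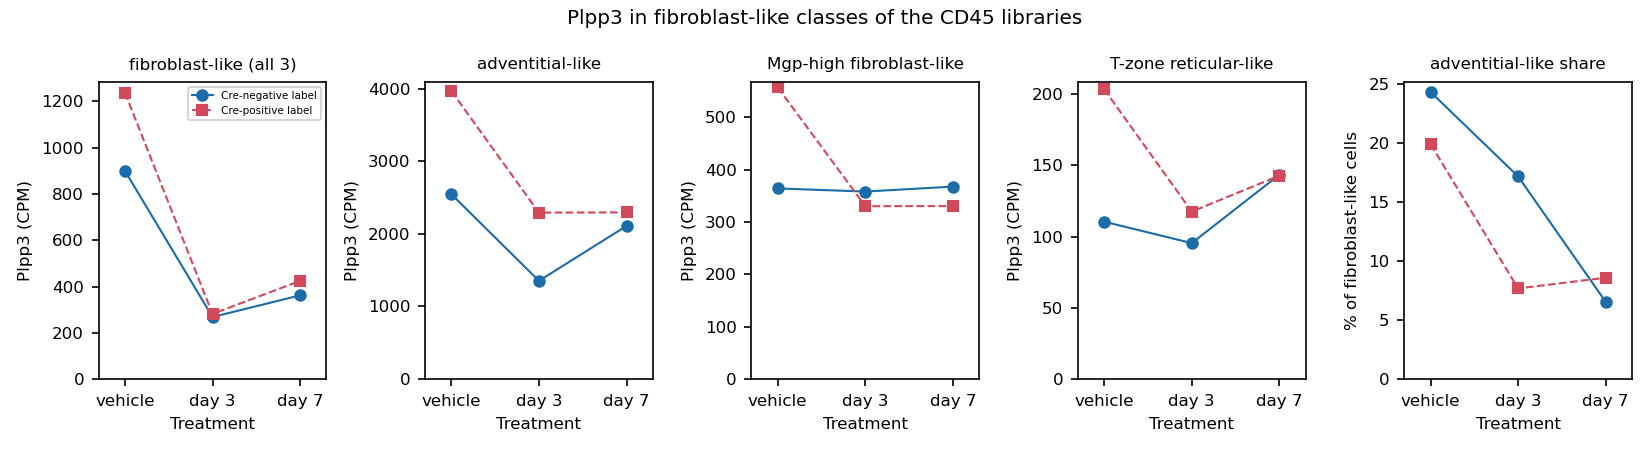
The first 4 panels show Plpp3 CPM from 0 against treatment in all fibroblast-like cells of the CD45 libraries and in each of the 3 classes, 1 point per library; the last shows adventitial-like cells as a percentage of fibroblast-like cells. The summed class drops from 899 and 1237 to 268 and 282 at day 3 while the adventitial-like share drops too.

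S1pr1 (chr3:115710433-115715072, minus strand), the egress receptor, was graded among lymphocytes. CD4 T-like cells had 332 and 393 CPM at vehicle, 293 and 373 at day 3, and 365 and 272 at day 7, and CD8 T-like cells 221 and 282 CPM at vehicle, 216 and 243 at day 3, and 271 and 215 at day 7. In every library the CD4 value was above the CD8 value, and the ranges of the 2 classes overlapped only between libraries. Regulatory T-like cells were lower, with 114 and 163 CPM at vehicle, 138 and 133 at day 3, and 141 and 94.4 at day 7, and overlapped B cell-like cells (119.9 to 178 CPM). NK-like cells had 20.1 to 72.7 CPM. Thinned shares of cells with a UMI kept this order, at 23.4% to 31.7% in CD4, 19.2% to 23.9% in CD8 and 9.23% to 14.8% in regulatory T-like cells, against 1.44% to 1.79% in T-zone reticular-like cells. CD8 T-like cells of the CD31 libraries gave 185 to 268 CPM, beside 215 to 282 CPM in the CD45 libraries.

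No change of S1pr1 passed in lymphocytes. The T cell-like sum used here left out an unnamed T and NK cluster and a cycling cluster with T cell markers. The cycling cluster had 88 and 43 cells at vehicle, 413 and 245 at day 3, and 61 and 99 at day 7. The summed T cell-like class gave a log2 change of -0.15 (SE 0.21, edgeR adjusted p = 0.956; 0.17 without the vehicle Cre-positive library) at day 3 and a log2 change of -0.06 (SE 0.21, edgeR adjusted p = 0.994) at day 7, and the labels gave a log2 change of -0.04 (SE 0.17, edgeR adjusted p = 0.934). The vehicle Cre-positive library was the highest and the day 7 Cre-positive library the lowest in CD4 T-like, regulatory T-like and B cell-like cells. Klf2, a factor known to drive S1pr1 transcription, was at 774 to 1249 CPM in CD4 T-like and 437 to 639 CPM in regulatory T-like cells, without overlap. Cd69, whose protein removes S1pr1 from the surface, was at 110 to 187 CPM in CD4 T-like and 169 to 255 CPM in regulatory T-like cells, which overlapped.

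The highest S1pr1 levels lay in blood endothelium. Col8a1-high cells had 845 to 1113 CPM with a median of 914, arterial-like cells 660 to 877 CPM with a median of 773 and capillary-like cells 452 to 682 CPM with a median of 540.3. HEV-like (257 to 327 CPM) and ceiling lymphatic-like cells (293 to 357 CPM) were lower and overlapped each other. No treatment difference of HEV-like S1pr1 passed (log2 change -0.10, SE 0.15, edgeR adjusted p = 0.731 at day 3). Macrophage-like cells were near the bottom, with 10.9 and 43.4 CPM at vehicle, 4.79 and 12.9 at day 3, and 9.93 and 17.3 at day 7. That class holds 59 to 207 cells per library, and its day 3 difference failed the correction (log2 change -1.48, SE 0.43, edgeR adjusted p = 0.476, and -0.98 without the vehicle Cre-positive library).

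S1pr3 (chr13:51408639-51422797, plus strand), a receptor known from perivascular and stromal cells, divided the lymphatic-like classes in the reverse sense to Spns2. Floor lymphatic-like cells had 62.2 and 28.7 CPM at vehicle, 85.99 and 81.4 at day 3, and 29.2 and 60.3 at day 7, whereas ceiling lymphatic-like cells had 0 to 0.444 CPM. The 2 day 3 libraries were the highest of the floor class. The change over all lymphatic-like cells did not pass (log2 change 0.98, SE 0.23, edgeR adjusted p = 0.593), in a class where 0 of 13268 genes were called and 677 had an unadjusted p below 0.05; in floor cells alone day 3 gave a log2 change of 0.91 (SE 0.41, edgeR adjusted p = 0.662). The change over all lymphatic-like cells was called without a filter on low counts (adjusted p = 0.0365) and without the vehicle Cre-negative library (adjusted p = 0.0436), and over all alternatives it ran from 0.77 to 1.22 with adjusted p from 0.0365 to 1.00. The 3 floor markers (Ccl20, Itga2b, Madcam1) summed in floor cells to 1564 and 885 CPM at vehicle, 3410 and 4102 at day 3, and 1066 and 2493 at day 7, so they were highest in the same 2 libraries. Of lymphatic-like cells, floor ones were 19.98% and 34.6% at vehicle, 28.8% and 22.8% at day 3, and 41.2% and 17.7% at day 7; the part of markers and makeup in the result was not tested.

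T-zone reticular-like cells held S1pr3 at 121 and 136 CPM at vehicle, 123 and 122 at day 3, and 133 and 154 at day 7, with overlapping treatments (log2 change -0.03, SE 0.17, edgeR adjusted p = 0.927 at day 3). Mural-like cells, the contractile cells of vessel walls, reached 81.9 to 128 CPM in the 4 libraries with at least 30 of them. HEV-like cells had 0 to 0.259 CPM and capillary-like cells 0 to 0.794 CPM. The unnamed Fabp7-led cluster had 101 to 247 CPM. Lymphocytes were low, with 8.33 to 13.3 CPM in B cell-like cells.

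S1pr4 (chr10:81497747-81500132, minus strand), a receptor of blood and lymphoid cells, was highest in gamma-delta T-like cells, with 87.4 and 64.3 CPM at vehicle, 72.1 and 72.6 at day 3, and 78.8 and 81.8 at day 7. NK-like cells of the CD45 libraries came next and overlapped them. In all, 9 of 33 classes had a median at 50% or more of the highest. CD4 and CD8 T-like cells had 35.1 to 47.9 CPM and 35.8 to 53.4 CPM, and regulatory T-like cells 28.4 to 52.4 CPM. These 3 overlapped. B cell-like cells had 24.9 and 19.6 CPM at vehicle, 33.7 and 22.2 at day 3, and 30.8 and 36.98 at day 7. Day 7 gave a change that failed the correction (log2 change 0.66, SE 0.21, edgeR adjusted p = 0.975); it was called without a filter on low counts (adjusted p = 0.0133) and without the day 7 Cre-negative library (log2 change 1.06, adjusted p = 0.00294), but was 0.24 without the day 7 Cre-positive library (adjusted p = 1.00). Endothelium held it too, at 27.1 to 48.5 CPM in Col8a1-high, 21.9 to 29.9 CPM in Igfbp3-high and 11.5 to 22.3 CPM in HEV-like cells, so the first of these classes overlapped B cell-like and CD4 T-like cells. T-zone reticular-like and adventitial-like cells were at 0.0860 to 1.15 CPM and 0 to 1.38 CPM.

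Lpar6 (chr14:73237895-73243294, plus strand), the LPA receptor of the set, was highest in Col8a1-high and capillary-like cells. Capillary-like cells had 547 and 330.5 CPM at vehicle, 324 and 328 at day 3, and 531 and 321 at day 7, and Col8a1-high cells 457 and 325 CPM at vehicle, 362 and 337 at day 3, and 378 and 291 at day 7. In capillary-like cells the vehicle and day 7 Cre-negative libraries stood apart from the other 4, which is neither a treatment nor a label split; the label difference did not pass (log2 change -0.47, SE 0.15, edgeR adjusted p = 0.961). HEV-like cells, rich in Enpp2, held 41.3 to 58.5 CPM, and migratory dendritic-like cells 0 to 3.18 CPM. Lpar6 lies within Rb1, on the opposite strand.

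Over the 7 classes planned for testing, 0 of 51 member tests were called at day 3, 0 of 51 at day 7 and 0 of 51 between labels (edgeR's quasi-likelihood test, Benjamini-Hochberg over all genes of a class). At an unadjusted p below 0.05 there were 10, 4 and 3, while over all genes at day 3 there were 2798 of 11854 in HEV-like, 2241 of 14213 in other blood endothelial-like and 677 to 1133 in each of the other 5 classes. At day 7 the counts over all genes ran from 105 of 13268 in lymphatic-like to 486 of 12027 in B cell-like cells, and between labels from 346 of 13268 in lymphatic-like to 1913 of 12492 in T cell-like cells. By adjusted p, DESeq2 called 2 (Enpp2 in HEV-like and in other blood endothelial-like cells, a sum whose makeup differed between libraries as given above), 0 and 0. The share of all genes called by DESeq2 is not given here, so its 2 calls are not set against a background. By edgeR, the background at day 3 was 0.565% of genes in HEV-like, 0.166% in B cell-like and 0.239% in migratory dendritic-like cells and 0 in the other 4 classes. At day 7 it was 0 in all 7. Between labels it was 0.0253% in HEV-like, 0.00704% in other blood endothelial-like, 0.00754% in lymphatic-like, 0.0400% in T cell-like and 0.00831% in B cell-like cells and 0 in both myeloid classes. Among members that passed the filter on low counts at day 3, 8 of 9 were lower in HEV-like cells (median log2 change -0.22, against -0.001 over all genes there), 4 of 10 in lymphatic-like cells (0.07, against -0.008), 6 of 9 in other blood endothelial-like cells, 5 of 9 in B cell-like, 4 of 7 in T cell-like, 3 of 4 in macrophage-like and 1 of 3 in migratory dendritic-like cells. Over all genes the median log2 change in the last 5 classes lay between -0.011 and 0.029. Of the 9 members in HEV-like cells, 3 had an unadjusted p below 0.05 by edgeR. The share of all genes that were lower is not given, so nothing is read from these directions.

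In 31 further classes or sums of classes, fitted after the data were seen, 2 of 209 member tests were called at day 3, both lower: Enpp2 in angiogenic tip-like cells (1 of 8 members tested, against 8.04% of genes) and Plpp3 in summed fibroblast-like cells (1 of 10, against 7.43%). With 1 call each, neither class is shown to stand above its background. None of 209 was called at day 7 or between labels, where 15 and 9 had an unadjusted p below 0.05, against 27 at day 3; nothing is read from these 3 counts. The difference between the treatment responses of HEV-like and lymphatic-like cells was itself tested, and 0 of 10 members were called (0 of 13723 genes, or 0%). The smallest adjusted p values were 0.624 for Sphk1 (log2 difference at day 3 -1.30, SE 0.47) and 0.676 for Enpp2 (log2 difference -0.585, SE 0.198). DESeq2 also called 0 there, and 3 of 10 members had an unadjusted p below 0.05, as did 810 of 13723 genes. With 2 residual degrees of freedom per class, p-values measure only the spread between these libraries.

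Of 35 other genes of the 2 pathways, none was called in the 7 planned classes (0 of 172 tests in each contrast by edgeR, with 23, 6 and 14 at an unadjusted p below 0.05 at day 3, at day 7 and between labels). In the further classes 6 of 645 tests were called at day 3, 3 higher and 3 lower: 1 of 22 in angiogenic tip-like (background 8.04%), 2 of 21 in arterial-like (4.06%) and 3 of 27 in summed fibroblast-like cells (7.43%). With so few calls, none of these classes is shown to stand above or below its background. Degs1, which makes the last step to ceramide, rose in angiogenic tip-like (log2 change 0.64, SE 0.15, edgeR adjusted p = 0.0137) and arterial-like cells (log2 change 0.86, SE 0.20, edgeR adjusted p = 0.0157). In angiogenic tip-like cells Degs1 was 116 and 121 CPM at vehicle, 188 and 159 at day 3, and 139 and 119 at day 7, with both day 3 libraries highest. Sgpp2, an S1P phosphatase, fell in arterial-like cells (log2 change -1.70, SE 0.32, edgeR adjusted p = 0.00391). Its levels there were 32.4 and 59.8 CPM at vehicle, 15.4 and 11.9 at day 3, and 31.3 and 27.4 at day 7, with both day 3 libraries lowest. Without the vehicle Cre-positive library the arterial-like changes were -1.09 for Sgpp2 and 0.55 for Degs1, and without the vehicle Cre-negative one -2.23 and 1.27.

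The other 3 calls were in summed fibroblast-like cells, beside that of Plpp3 and with the same shift in makeup, whose part in them was not tested. Pla1a, a phospholipase, fell (log2 change -2.25, SE 0.28, edgeR adjusted p = 0.0132), from 229 and 186 CPM at vehicle, 52.3 and 34.7 at day 3, and 39.7 and 58.7 at day 7. Within adventitial-like cells, its main source, Pla1a was 778 and 711 CPM at vehicle, 407 and 464 at day 3, and 384 and 532 at day 7. Plpp1, a relative of Plpp3, rose (log2 change 1.01, SE 0.18, edgeR adjusted p = 0.0276) with 172 and 156 CPM at vehicle, 331 and 328 at day 3, and 195 and 253 at day 7. Kdsr, an early enzyme of sphingolipid synthesis, fell (log2 change -0.72, SE 0.15, edgeR adjusted p = 0.0413) with 28.2 and 27.5 CPM at vehicle, 16.3 and 17.4 at day 3, and 26.7 and 29.7 at day 7. DESeq2 did not call Kdsr (adjusted p = 0.0586) or Degs1 in arterial-like cells (adjusted p = 0.176). It gave no adjusted p for Sgpp2, so that call was not checked by DESeq2. All 6 calls were lost without some single library, in each case including the day 3 Cre-positive one.

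Other receptors and transporters of the 2 lipids were given for comparison. S1pr5 was at 25.1 to 43.1 CPM in NK-like cells, Lpar1 at 239.8 to 409.8 CPM in T-zone reticular-like cells and higher still in the unnamed Fabp7-led cluster (278 to 631 CPM), Lpar3 at 21.7 to 39.5 CPM in migratory dendritic-like cells and Lpar4 at 96.1 to 169 CPM in Penk-high endothelium. S1pr2 was highest in adventitial-like cells, at 30.01 to 49.7 CPM. Mfsd2b, an S1P exporter known from red cells and platelets, had class medians of at most 2.53 CPM.

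Pattern likeness was measured as Pearson's r of mean log2(CPM + 1) over the 33 classes, among 11537 genes; classes share libraries, and no test was made. Genes much like Enpp2 included Bace2 (r = 0.96) and Mindy4 (r = 0.95), and Spns2 was most like Ptpn14 (0.95), Sncaip (0.93) and Ecscr (0.93). S1pr1 was nearest to Prkd2 (0.93), Tnfrsf22 (0.92) and Icam2 (0.89), and S1pr3 to Gm34907 (0.93), Ngfr (0.89) and Lpar1 (0.89), itself an LPA receptor. Plpp3 was nearest to Sparcl1 (0.97), Hspg2 (0.96) and Gask1b (0.96). For S1pr4 the nearest were Pdcd10 (0.90), Pop5 (0.89) and Mlx (0.88), for Sgpl1 Csf2ra (0.87), Abhd12 (0.84) and Apobec1 (0.84), and for Lpar6 Arhgap18 (0.89), Pttg1 (0.88) and Nkapd1 (0.88). Sphk1 and Sphk2 did not reach the mean of 20 CPM in any class that this measure required. Among the members themselves, Enpp2 and Spns2 were the most alike pair (r = 0.85), and S1pr1 and Sgpl1 the least (r = -0.67).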

How the data were processed

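The 12 libraries hold raw UMI counts per gene and barcode, deposited by the authors as unfiltered matrices. Per the submitters' processing notes they used Cell Ranger 7.0.1 and mm10; the matrix headers name another version. Kept barcodes had 1000 or more UMIs, 500 or more genes and no more than 10% of UMIs from mitochondrial genes. Doublets were removed by score at 0.8% per 1000 cells (4.78% to 9.31%), because Scrublet's own threshold marked under 0.5% of cells in 3 libraries. In the vehicle Cre-negative and day 3 Cre-positive CD31 libraries the removed barcodes had fewer UMIs than the kept ones (median 3932.5 against 4325, and 2203 against 3433), unlike in the other 10, so removal there may have missed doublets. Cells of each fraction were clustered with scanpy 1.11.5 (2000 variable genes, 30 components, Leiden resolution 1) and named from marker lists; the members, gene lists and markers were chosen with earlier results of these data known. UMIs were summed per class and library and tested with edgeR 4.0.16 (quasi-likelihood, TMM, filterByExpr) on treatment plus label over the 6 libraries of a fraction, with Benjamini-Hochberg adjustment over all genes and a threshold of 0.05. A standard error is the change divided by the root of its F. As there is 1 library per group, the spread comes from the additive fit, which leaves 2 residual degrees of freedom. Alternatives were DESeq2 1.42.0, other scalings, no filter, 2000 UMIs, free RNA subtracted, doublets kept and each library left out. The 31 further classes, and the alternatives in them, were added after seeing the data. The named genes are all 10 members, the pathway genes that were called or share a member's role, and for each member the 3 genes most like it, of which 1 is not reported here. An added reporter feature was left out of totals. On counts simulated for 14213 genes of the other blood endothelial class, day 3 changes of log2 1 were recovered in 72.7% of genes and of log2 0.5 in 11.1%, with 8.8% false calls. Apart from the changed genes, the simulation gave each gene 1 mean level in all libraries. It thus held no shift in makeup and does not cover smaller classes. In the real data of that class 0 of 14213 genes were called at day 3. The depth was 36724887 to 76187731 UMIs per library; intervals were not drawn from cells.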

Additional observations from a re-analysis of the deposited data

Results flagged for a closer look

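An added reporter feature, mRFP, was listed in 4 CD31 libraries and took no part in any comparison. It had 364 UMIs in the vehicle Cre-positive library, 930 in the day 3 Cre-positive library and 342 in the day 7 Cre-positive library, against 0 in the day 7 Cre-negative library. The vehicle and day 3 Cre-negative CD31 libraries did not list it, so whether they held the reporter is not known. If the reporter went with the Cre-positive label, the label comparisons cannot tell them apart. The sample labels name no reporter, while the text on the whole study lists reporter mice, LC3B-RFP-GFP among them.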

How the results depend on the processing

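Of the 51 member tests in the planned classes, the 0 calls at day 3 became 1 with RLE scaling, 1 with total UMIs alone, 2 with DESeq2, 3 without a filter on low counts and 1 in cells of at least 2000 UMIs. Shares of all genes called are not given for these settings or for fits with a library left out. These counts are therefore not set against a background. Leaving out single libraries gave 0 to 3, with 3 without the vehicle Cre-negative, 1 without the vehicle Cre-positive and 1 without the day 7 Cre-positive CD31 library. At day 7 the 0 calls became 1 without the filter and 0 to 1 with a library left out (1 without the day 7 Cre-negative CD45 library). Between labels they became 0 to 1 (1 without either day 7 CD45 library). The test of HEV-like against lymphatic-like responses went from 0 to 1 without the filter and gave 0 with any library left out. Enpp2 at day 7 in HEV-like cells changed sign, ranging from -0.26 to 0.21 with a library left out, 0.21 without the vehicle Cre-positive and 0.11 without the day 7 Cre-positive library. S1pr1 at day 3 in T cell-like cells ranged from -0.43 to 0.17, with 0.17 without the vehicle Cre-positive library. No value reversed under another scaling, tool, filter or cell limit among those recomputed. The cause of these shifts was not tested. A missing filter brings in more genes and a left-out library leaves fewer samples, and the part of either in the shifts was not tested. A class left with 1 library of a treatment assumes that it varies like the others. No paired analysis was possible because the labels give no replicate numbers that groups share; the fit of treatment plus label compares treatments within labels, and the test of HEV-like against lymphatic-like cells kept the library as a block. Sphk1 had the fewest UMIs of the members, 746 in the CD31 and 369 in the CD45 libraries.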
